A study of Mus musculus with 2 samples.

Results

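Transgelins and calponins are small actin-binding proteins that carry a calponin homology domain and calponin-like repeats. The expression of the 6 mouse genes of this family was examined in 2 melanoma cultures by RNA sequencing, with 1 library of each. The family comprised 3 transgelins (Tagln, Tagln2 and Tagln3) and 3 calponins (Cnn1, Cnn2 and Cnn3), found by symbol among 23284 gene symbols. Tagln2 was chosen by its FPKM difference between these same libraries and the other 5 genes by family membership, so the values below are a description and carry no test. FPKM is a fragment number divided by transcript length and library size, and it is used to set levels of different genes side by side. How far this holds for genes that share sequence with others was not tested.

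B16 is a melanoma line of the C57BL/6 mouse strain, and B16/BL6 is a subline of it selected for invasion. Both were grown with serum and antibiotics, B16 in DMEM and B16/BL6 in RPMI, so line and medium cannot be told apart. Neither culture was described as genetically altered or treated. The study looked for genes related to metastasis. Without a second library of either culture, no spread between replicates is known and no p-value is given.

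Calponins bind actin filaments and restrain the activity of the myosin motor on them. Tagln (SM22 alpha) and Cnn1 are markers of differentiated smooth muscle, and Tagln is a classical target of serum response factor (SRF) and its coactivators of the myocardin family. Tagln2 (SM22 beta) and the calponins Cnn2 and Cnn3 occur in many cell types outside muscle, and Tagln3 (NP25) is mainly a neuronal gene. Transgelins and calponins have been studied in tumour cells for their part in shape, adhesion and movement.

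Both libraries carried melanocyte identity. All 7 melanocyte markers passed 1 FPKM in at least 1 library, with a summed level of 12082 FPKM (B16) and 18525 FPKM (B16/BL6). Of these, Tyr (10.6 and 164 FPKM) and Pmel (2166 and 4651 FPKM), both pigment genes, were past 2-fold, with the higher level in B16/BL6. Mlana (3789 and 6160 FPKM) and Dct (2238 and 3423 FPKM) were also higher there, within 2-fold. In all, 5 of the 7 were higher in B16/BL6 and 2 lower. Of 7 markers of smooth muscle and pericytes, 4 passed this minimum, with sums of 6.55 and 4.35 FPKM, and the defining genes Acta2, Myh11 and Rgs5 were listed at 0 in both. Of 8 fibroblast markers, 1 passed, the receptor gene Pdgfrb (0.104 and 7.43 FPKM), which made up most of the list sums of 0.637 and 8.19 FPKM, while Col3a1, Dcn, Lum and Thy1 were at 0 in both. No endothelial, keratinocyte or skeletal muscle marker of 5, 5 and 6 reached 1 FPKM, and of 7 leukocyte and 7 neuronal markers only Cd68 and Tubb3 did. Tubb3, a neuronal tubulin gene, was at 91.0 FPKM in the B16 library and 98.3 FPKM in the other and made up nearly all of the neuronal sums of 91.1 and 98.3 FPKM, with 4 of the 7 neuronal markers at 0 in both. The part of these markers in the values below was not tested. The depth was about 1.10 times as high for B16/BL6, from a ratio that 150 of 379 very low genes shared. In units of 1000000 fragments it was roughly 10.0 (B16) and 11.1 (B16/BL6), estimates with no interval.

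Where a pair of FPKM values is given below, the first is that of B16 and the second that of B16/BL6. In B16, 3 members were abundant and 3 were near or at 0. Tagln2 stood at 151 FPKM and Cnn3 at 150.4 FPKM, the 539th and 541st of all listed symbols, followed by Cnn2 at 65.5 FPKM. Tagln was at 0.657 FPKM, Tagln3 at 0.190 FPKM and Cnn1 was listed at 0. Tagln2 and Cnn3 were thus at nearly the same level in B16, and without replicates no spread is known against which to set that small gap.

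In B16/BL6 the order changed through Tagln2. Cnn3 was at 210 FPKM and Cnn2 at 65.2 FPKM, then Tagln at 0.358 FPKM and Tagln2 at 0.210 FPKM, with Tagln3 and Cnn1 both listed at 0. Summed over the 6 genes, the level was 368 FPKM in the B16 library against 276 FPKM in the other. Tagln2 made up 41.1% of this sum in B16 and 0.0759% in B16/BL6, while the share of Cnn3 went from 40.9% to 76.2% and that of Cnn2 from 17.8% to 23.6%. Without Tagln2 the sums were 217 and 276 FPKM.

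**Figure D1:**
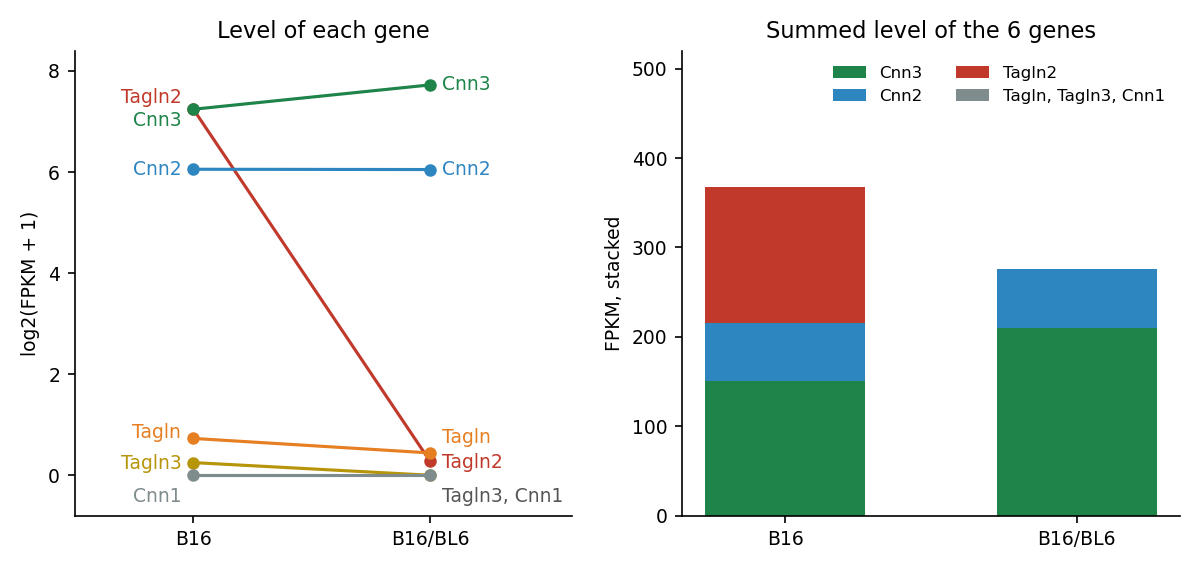
Left, level of each of the 6 genes as log2(FPKM + 1) in the B16 library and the B16/BL6 library, with 1 point per library and a line joining the values of a gene. Right, the same genes as stacked FPKM on a linear axis from 0. Tagln2 goes from 151 FPKM (B16) to 0.210 FPKM (B16/BL6), while Cnn3 and Cnn2 remain abundant in both libraries.

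Differences between the cultures are given as the B16/BL6 value less the B16 value of log2(FPKM + 1), a scale that understates the change of low genes. A gene was called at 2-fold on this scale if it reached 1 FPKM in at least 1 library. A low gene can therefore differ by more than 2-fold in FPKM without a call. Of 10709 genes that reached it, 338 (3.16%) were at least 2-fold lower in B16/BL6 and 354 (3.31%) at least 2-fold higher. Among the members, 3 passed the minimum, of which Tagln2 was lower, 0 were higher and Cnn2 and Cnn3 lay within 2-fold. Tagln2 passed through its B16 value alone and had been picked for its difference, so nothing is read from this count. With each library rescaled to a sum of 1000000 (the TPM scale), the background became 369 genes higher and 583 lower of 11257, with the median of all genes at -0.16, and the calls of the 3 members were as before.

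Tagln2, an actin cross-linking protein gene of many non-muscle cells, had a log2 difference of -6.98. The ratio of its FPKM values, B16 over B16/BL6, was 721. Only 5 of the 10709 genes had a lower difference, and all 5 were small RNA, predicted or clone-named symbols. Tagln2 had been picked for this difference, so nothing is read from its place among all genes. By the approximate depth and a transcript of 1586 bases, the B16 value rested on about 2405 fragments and the B16/BL6 value on about 3.70, so the size of the ratio is poorly fixed although the B16/BL6 level was near 0. In bulk RNA, fewer cells with Tagln2 and less of its RNA per cell cannot be told apart.

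Cnn3, the acidic calponin of non-muscle cells, went from 150.4 FPKM in the B16 library to 210 FPKM in the other, a log2 difference of 0.48 and a ratio of 1.40. Its rank went from 541st to 414th. On the TPM scale the difference was 0.31, or 0.47 relative to the median of all genes. Cnn2, the calponin of many non-muscle and blood cells, was at 65.5 and 65.2 FPKM, a difference of -0.01. The abundant actin gene Actb, set beside them as a control, was at 1789 and 1747 FPKM.

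The remaining members gave too few fragments to compare. The smooth muscle transgelin, Tagln, had 0.657 and 0.358 FPKM, which correspond to some 10.5 and 6.35 fragments. Tagln3, the neuronal transgelin, was at 0.190 FPKM in B16, about 2.36 fragments, and listed at 0 in B16/BL6. Cnn1, the smooth muscle calponin, was listed at 0 in both. None of the 3 reached 1 FPKM in either library, and a listed 0 can be a failed estimate.

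**Figure D2:**
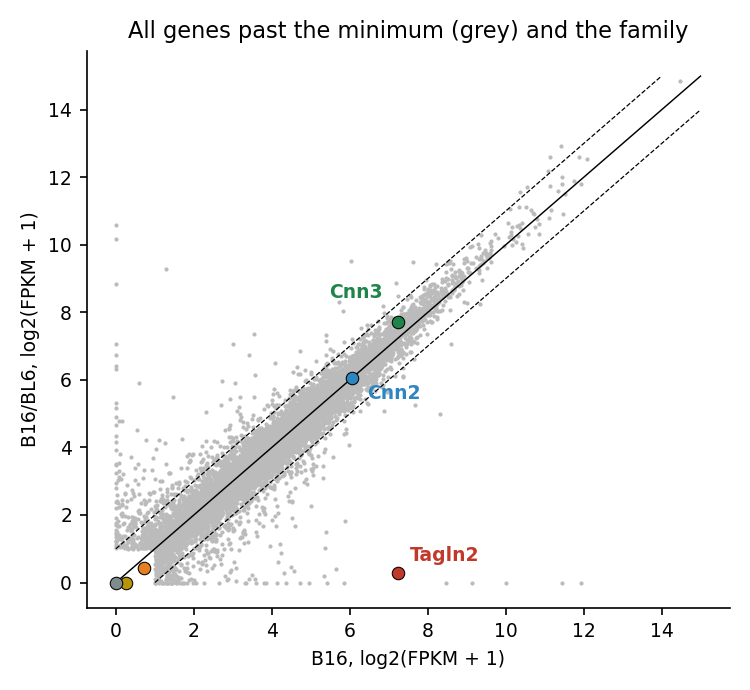
Level of each gene that passed 1 FPKM in at least 1 library (grey points, 10709 genes) in B16 (x axis) and B16/BL6 (y axis), both as log2(FPKM + 1). Coloured circles are the 6 family members, with Tagln, Tagln3 and Cnn1 unlabelled near the origin, the solid line marks equal levels and the dashed lines 2-fold on this scale. Cnn2 and Cnn3 lie within the dashed lines and Tagln2 lies far below them.

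The family's genes lie on 5 chromosomes and were placed with the RefSeq annotation of GRCm38, the assembly named mm10. Tagln2 spans chromosome 1, 172500246 to 172507375, on the forward strand. Tagln (45929628 to 45936058, reverse strand) and Cnn1 (22099221 to 22109221, forward) are both on chromosome 9. Tagln3 spans chromosome 16, 45711230 to 45724531 (reverse), Cnn2 chromosome 10, 79988600 to 79995400 (forward), and Cnn3 chromosome 3, 121426541 to 121458205 (forward). In GENCODE M21, the transcript with the longest coding sequence had 5 exons and 199 codons for Tagln2, 5 and 201 for Tagln, and 4 and 199 for Tagln3. The calponin transcripts had 7 exons each and 297 (Cnn1), 305 (Cnn2) and 330 (Cnn3) codons.

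The members are related in sequence but share no long exact stretch. Coding sequences of Tagln2 and the other 5 genes were 68.1% (Cnn1) to 72.6% (Cnn2 and Cnn3) identical over their aligned bases, with 71.8% for Tagln. The longest exact run that the Tagln2 transcript shared with that of any other member was 17 bases, and the longest between any 2 members was 23 bases (Cnn1 and Cnn3). Of the 1537 runs of 50 bases in the Tagln2 transcript, 12 (0.781%) also occurred on the same strand in transcripts of other genes. For comparison, 90.4% of the runs of the glycolytic gene Gapdh, known for its many processed copies, occurred in other genes. Gapdh, usually abundant, was listed at only 0.531 and 0.561 FPKM. The treatment of reads with several places, not given in the sources used here, was not tested for its part in any value.

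Among the calponins, Cnn3 shared 16.4% of its runs with the processed pseudogenes Gm17936 and Gm4815, while Cnn2 shared 0. On the opposite strand, 14.15% of the Cnn3 runs were complementary to transcripts of Gm42928. Tagln also overlaps genes on the opposite strand: 48.3% of its runs are complementary to transcripts of Pcsk7, a proprotein convertase gene that ends inside it, or of the antisense gene Gm48529. Pcsk7 was at 9.94 and 12.3 FPKM. The library kit keeps strand, but the counting may not have used it (not given in the sources used here). Without strand, reads from these shared stretches cannot be told apart from those of the partners.

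The bases just before the start sites of the 3 abundant members are shown because all 3 genes were abundant in B16 and only Tagln2 was near 0 in B16/BL6. The windows are the 250 bases before the RefSeq start. GENCODE M21 begins its first exon inside them, so each line gives only the bases before that exon, 5′ to 3′ on the forward strand of GRCm38.p6, with matches to the searched motifs in capitals. This leaves 51 bases for Tagln2, 234 for Cnn2 and 206 for Cnn3.
Tagln2 (chr1:172499996-172500046): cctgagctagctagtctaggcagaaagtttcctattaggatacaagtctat
Cnn2 (chr10:79988350-79988583): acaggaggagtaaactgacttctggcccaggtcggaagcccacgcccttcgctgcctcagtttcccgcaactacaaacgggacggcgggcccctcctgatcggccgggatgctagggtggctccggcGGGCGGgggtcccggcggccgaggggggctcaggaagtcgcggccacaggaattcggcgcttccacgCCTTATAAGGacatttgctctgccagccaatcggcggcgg
Cnn3 (chr3:121426291-121426496): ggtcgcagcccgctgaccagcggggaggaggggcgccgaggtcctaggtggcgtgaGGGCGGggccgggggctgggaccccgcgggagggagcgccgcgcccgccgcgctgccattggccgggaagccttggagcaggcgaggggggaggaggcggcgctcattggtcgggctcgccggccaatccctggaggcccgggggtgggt

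Motifs were searched on both strands in the whole windows and in those of Cnn1 and Tagln3, which the RefSeq table also held (5 of 6 members, of 32851 promoters). They were GGGCGG, the GC box of SP factors, GGAATG, the core of TEAD sites, TGAGTCA as an AP-1 site, TCATGTG and TCACGTG as E-boxes of the kind that MITF binds, and the CArG box of SRF. TCACGTG and its reverse complement can overlap each other, and no matches overlapped in the windows of these members. Tagln2 held 3 GC boxes, beginning 170, 38 and 27 bases before the RefSeq start, against 2 in Cnn2 and 1 in Cnn3, and 32.7% of all promoters held at least 1. Tagln2 was the only one of the 5 with GGAATG, 118 and 80 bases before the RefSeq start, a motif of 12.6% of all promoters. By GENCODE, whose Tagln2 begins 199 bases earlier, all 5 of these Tagln2 matches lie after the start and none before it. The GC box of Cnn2 nearest to its start also does not lie before the GENCODE start. Whether these matches lie within the first exon was not checked. Cnn2 was the only one of the 5 with a CArG box, 56 bases before the start, which 1.47% of promoters held. The RefSeq promoter table lacked Tagln, the classical SRF target, so Tagln was not searched. The AP-1 site (4.46% of promoters), TCATGTG (3.25%) and TCACGTG (3.13%) were in none of the 5 windows. The whole window of Tagln2 held 14 CpG dinucleotides, that of Cnn2 25 and that of Cnn3 28, against 10 in Tagln3, 3 in Cnn1 and a median of 6 over all promoters. These matches describe letters and do not show binding.

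The genes beside Tagln2 on chromosome 1 were mostly at or near 0 in both libraries. Of the 5 protein-coding genes on each side, 4 were listed at 0 in both libraries and 2 reached 1 FPKM. Pigm, a gene of the glycosylphosphatidylinositol anchor pathway, was at 5.20 and 5.15 FPKM, and Slamf9, a gene of the SLAM receptor family, was at 0.580 and 1.66 FPKM. The immediate neighbours Igsf9 and Ccdc19 (Cfap45) were at 0 and 0.0209 FPKM and at 0 in both. The phosphatase gene Dusp23, 131 kb downstream, was at 0.674 and 0.204 FPKM. On the log2(FPKM + 1) scale no neighbour of Tagln2 was past 2-fold. The FPKM values of some low ones, such as Slamf9 (difference 0.75), differed by more than 2-fold. Tagln2 at 151 FPKM stood far above all 10 neighbours in B16.

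Beside Cnn3 on chromosome 3, 8 of 10 neighbours passed the minimum and 2 were past 2-fold, both higher in B16/BL6. Slc44a3, a choline transporter-like gene that starts 33.0 kb after the start of Cnn3, went from 0.501 to 59.6 FPKM (difference 5.34). Tmem56 (Tlcd4), on the other side of it, was at 7.36 and 59.3 FPKM (2.85). Alg14, which lies between Tmem56 and Cnn3, was at 64.6 and 94.0 FPKM (0.53), beside 0.48 for Cnn3. Beside Cnn2 on chromosome 10, all 6 neighbours that passed were above 0, from 0.13 to 0.80, while Cnn2 was at -0.01. After centring on the median of the chromosome, Cnn2 was at -0.42 and Cnn3 at 0.33. Beside Tagln, Tagln3 and Cnn1, 7, 3 and 6 neighbours passed, and 0 of them were past 2-fold.

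**Figure D3:**
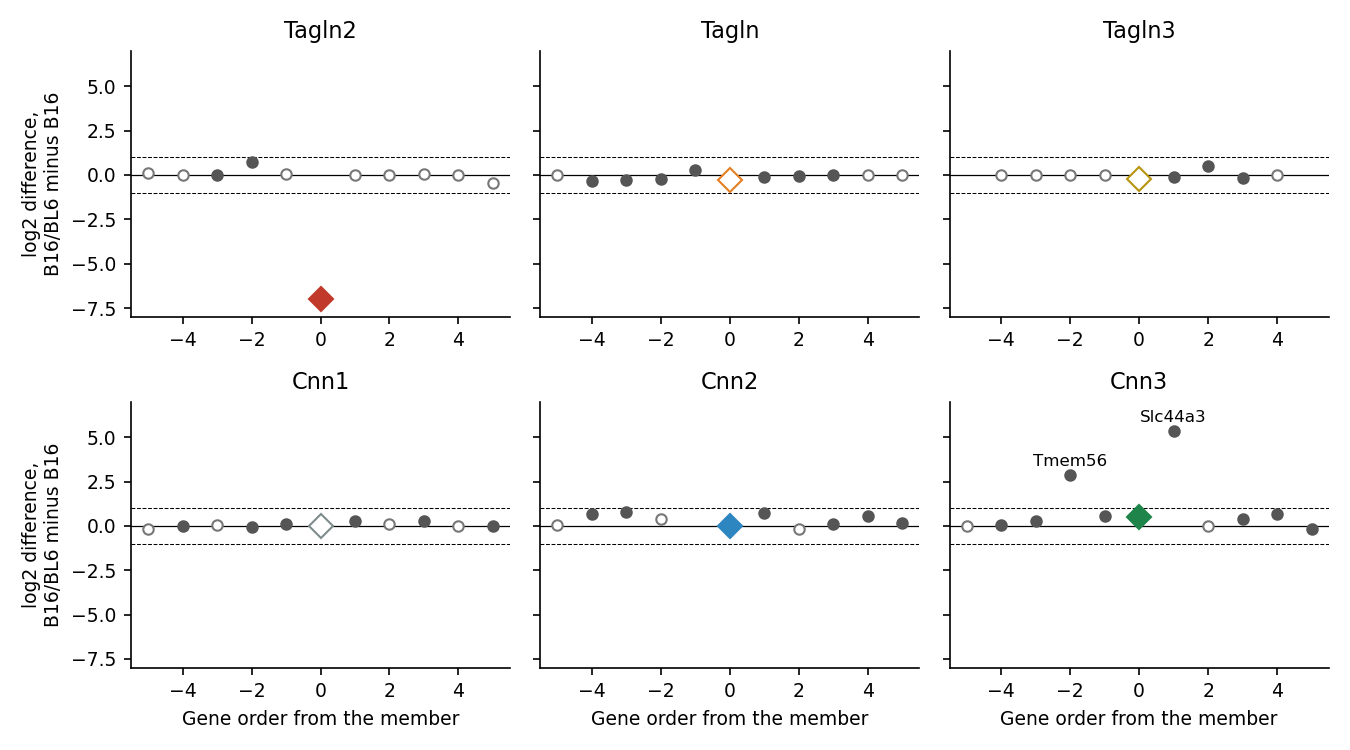
Difference in log2(FPKM + 1), B16/BL6 minus B16 (y axis), of each member (diamond, at 0 on the x axis) and the 5 protein-coding genes on each side of it in order of rising genome position (circles, with 2 unlisted symbols beside Tagln3 and 1 beside Cnn2 left out). Filled symbols reached 1 FPKM in at least 1 library, open symbols did not, and dashed lines mark 2-fold. Tagln2 lies at -6.98 among neighbours near 0, and beside Cnn3 the genes Slc44a3 and Tmem56 lie above the upper line.

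Over the 2 libraries, no other gene matched the pattern of Tagln2 closely. Likeness was the Euclidean distance over the 2 values of log2(FPKM + 1), with small RNA, predicted and clone-named symbols left out. The nearest genes were Fkbp11, which encodes a prolyl isomerase (48.9 and 0.311 FPKM, distance 1.61), Isyna1, the inositol phosphate synthase gene (39.3 and 0.151 FPKM, distance 1.92), and the chemokine gene Ccl5 (40.4 and 1.02 FPKM, distance 2.02). Cnn2 had 598 genes and Cnn3 199 genes within a distance of 0.5, where Tagln2 had 0. Since Tagln2 had been picked for its difference between these same values, few close genes follow from that choice. The nearest to Cnn2 were Tax1bp1, Sirt2 and Aaas, at distances of 0.020 to 0.025, and the nearest to Cnn3 were Psma1, Tex261 and Pa2g4, at 0.036 to 0.054.

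Other genes with a calponin homology domain were examined as a list. Tagln2 had been picked for its difference, so nothing is read from its contrast with them. Of 68 such genes found, 50 passed the minimum. On the log2(FPKM + 1) scale 0 were at least 2-fold higher and 0 at least 2-fold lower in B16/BL6. Without the added 1, the FPKM ratio was past 2-fold for Syne1 (2.08) and Clmn (2.18), both higher, and Hook1 (4.74 and 1.89 FPKM), lower. The differences of the 50 genes ran from -0.99 to 0.95 with a median of 0.02, and the median of all 10709 genes was 0.01. The largest among those at 5 FPKM or more were Syne1, which encodes a nuclear envelope spectrin-repeat protein (5.98 and 12.5 FPKM), Ehbp1l1 (16.2 and 8.15 FPKM), Clmn (2.79 and 6.08 FPKM) and Micall2, a junctional regulator of actin (5.17 and 10.3 FPKM). On the TPM scale 3 were lower and 0 higher, and the median was -0.14, or 0.02 relative to that of all genes.

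Smooth muscle contractile genes, the programme that Tagln and Cnn1 mark, were mostly low. Of 25 genes, 14 passed the minimum and 6 were listed at 0 in both libraries. At least 2-fold higher was 1 gene, the myosin light chain gene Myl9, listed at 0 in the B16 library and at 6.00 FPKM in the other. Its call rests on that listed 0, which can be a failed estimate. At least 2-fold lower were 2 genes, the LIM protein gene Csrp1 (649 and 306 FPKM) and the smooth muscle actin gene Actg2 (1.64 and 0.0741 FPKM). Tpm1, an actin filament tropomyosin gene, was at 675 and 498 FPKM, and Nexn, a gene of an actin-binding filament protein, at 3.88 and 5.92 FPKM. The median over the list came to -0.06.

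SRF and its broadly expressed coactivators, which drive Tagln in muscle, were above the minimum in both libraries. Srf was at 25.2 and 19.6 FPKM, and the coactivator genes Mkl1 (MRTF-A) and Mkl2 (MRTF-B) at 14.2 and 11.4 FPKM and at 7.47 and 7.90 FPKM, while the smooth muscle coactivator Myocd was at 0 and 0.0334 FPKM. Of the 23 factors and targets that passed the minimum, 0 were higher and 3 lower, and 16 were below 0, with a median of -0.34. The lower ones were Filip1l (9.16 FPKM in B16, listed at 0 in the other library), the focal adhesion gene Vcl, which encodes vinculin (30.9 and 9.19 FPKM), and the urokinase receptor gene Plaur (23.4 and 9.60 FPKM). The listed 0 of Filip1l can be a failed estimate. Ppp1r18, a gene of an actin-associated phosphatase subunit, was at 38.5 and 20.7 FPKM. On the TPM scale 6 were lower, but the median relative to that of all genes was -0.35, beside -0.34 before.

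Of 43 measured genes of actin filament binding and turnover, 3 were higher and 0 lower, with a median of -0.05. Among them Pfn2, a profilin gene, went from 5.60 to 61.5 FPKM, and the bundling protein gene Fscn1 was at 15.4 and 47.4 FPKM. The third was the cytoskeletal scaffold gene Palld (0.0539 and 1.64 FPKM). Cap1, which recycles actin monomers, was at 126 and 66.8 FPKM, and the Arp2/3 complex gene Arpc1b at 115 and 69.3 FPKM. The last list held genes of the transforming growth factor beta pathway and KLF or SP factors, which regulate Tagln in muscle. It also held some Notch pathway genes and a forkhead factor. Of its 21 measured genes, 1 was higher and 2 lower, with a median of 0.17. On the TPM scale that median was -0.07, or 0.09 relative to that of all genes. The ligand genes Tgfb1 (7.11 and 0.522 FPKM) and Tgfb3 (4.99 and 12.8 FPKM) differed in opposite directions, and Tgfb2, the other lower gene, was at 1.80 and 0.363 FPKM. On the log2(FPKM + 1) scale the inhibitor gene Smad6 (3.34 and 7.60 FPKM) and the Notch receptor gene Notch2 (7.18 and 12.9 FPKM) stayed under 2-fold. Without the added 1, Smad6 had an FPKM ratio of 2.27. Tagln2 lay below every measured gene of these 5 lists, but it had been picked for its difference, so nothing is read from this.

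**Figure D4:**
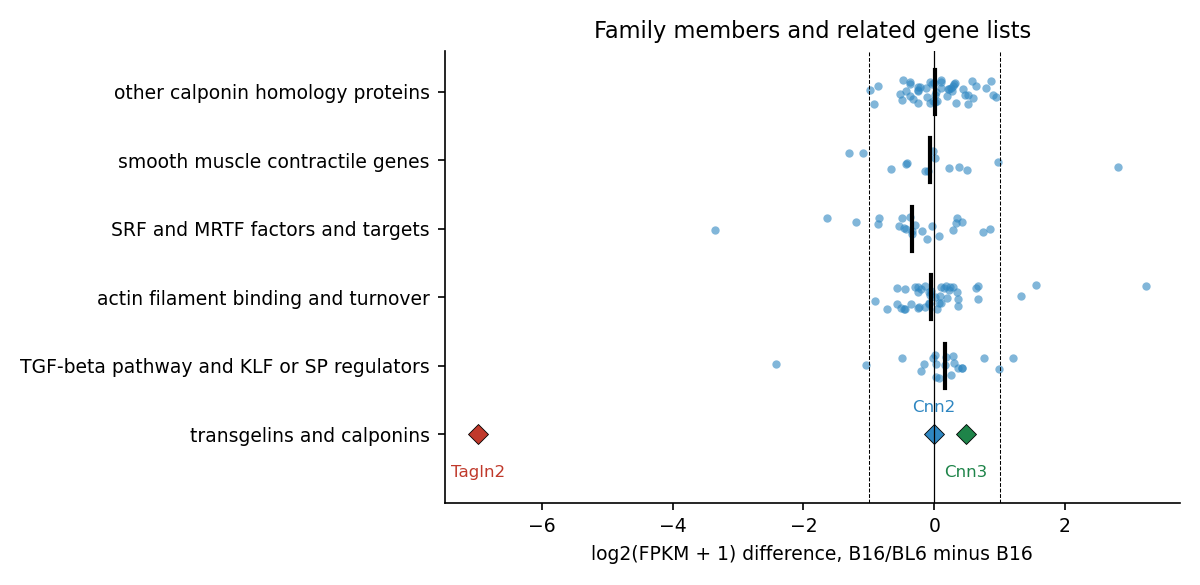
Difference in log2(FPKM + 1), B16/BL6 minus B16 (x axis), of each gene that passed 1 FPKM in at least 1 library in 5 related gene lists (blue points, with the list median as a black bar) and of the 3 members that passed (diamonds). Points are spread vertically for visibility, and dashed lines mark 2-fold. The 50 other calponin homology genes lie between -0.99 and 0.95, and Tagln2 lies at -6.98.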

How the data were processed

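Total RNA of 1 B16 and 1 B16/BL6 culture was made into libraries with a strand-keeping Illumina mRNA kit, per the labels' protocols. The authors deposited 1 FPKM value per gene symbol, per the file headers. The submitters' processing notes list Cufflinks 2.2.1, TopHat2 2.0.13, SAMtools 0.1.19 and Bowtie2 2.2.3, with the build mm10 and no settings. Scaling, annotation and handling of reads with several places: not given in the sources used here.

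Since FPKM is not a count and each group held 1 library, no test was run. Values were compared as log2(FPKM + 1) (Python 3.11.15, pandas 2.3.3), with a minimum of 1 FPKM in at least 1 library and a call at 2-fold. Alternatives were pseudocounts of 0.1 and 5, the TPM scale (each FPKM divided by its library's sum, times 1000000), upper-quartile scaling, centring over all genes or by chromosome, no minimum and a minimum of 5 FPKM. The members and lists were chosen with earlier results of these data known. Named genes were the 6 members, up to 4 genes per list with the largest difference among those at 5 FPKM or more, some neighbours of Tagln2 and other neighbours past 2-fold. Also named were the smooth muscle and fibroblast markers at 0 in both libraries, the 3 genes most alike to each measured member, Actb and Gapdh. Markers of other cell types at 0 were left unnamed. Actg2, Des, Cspg4, Lmod1, Palld, Tgfb2, Srf, Mkl1, Mkl2, Myocd, Pcsk7, Alg14, Cd68 and Hook1 were named after their values were seen. List symbols were matched directly or by a RefSeq synonym that a single gene carries. Promoters came from RefSeq (GRCm38.p6), and transcripts from GENCODE M21, aligned with Biopython 1.88. Relative depth was the B16/BL6 to B16 ratio, 0.906, that 150 of 379 genes under 0.1 FPKM shared. Approximate depth was the median over 80 (B16) and 75 (B16/BL6) genes under 0.2 FPKM with a single transcript over 1500 bases, taking each as 1 fragment and keeping estimates from 8 to 14 times 1000000, a range taken from an earlier analysis of these data that bounds the estimate. Protein sequences were not used here.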

Additional observations from a re-analysis of the deposited data

How the results depend on the processing

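The direction and 2-fold call of Tagln2 held under all 8 alternatives, with differences from -8.93 (pseudocount of 0.1) to -4.91 (pseudocount of 5). The alternatives that changed only the minimum could not alter its difference. Cnn2 (-0.42 to -0.01) and Cnn3 (0.31 to 0.48) stayed within 2-fold. Tagln3, under the minimum, was at -1.53 with a pseudocount of 0.1. Of 160 recomputed counts and member differences, 137 kept their call or stayed within 1.5 times. Among the 160, the values without a minimum and the member differences with a minimum of 5 FPKM could not change by construction. With a pseudocount of 0.1, 511 of all genes were lower, and 2 calponin homology genes were higher and 1 lower, 2 smooth muscle genes higher and 2 genes of the TGF-beta list higher. With a pseudocount of 5, 151 of all genes were higher and 118 lower, 1 smooth muscle gene was lower, and 0 TGF-beta genes were higher and 1 lower. On the TPM scale 583 of all genes were lower, as were 3 calponin homology, 6 SRF and 1 actin filament genes, and 2 smooth muscle genes were higher. Upper-quartile scaling left 1 calponin homology gene lower. With each chromosome centred, 2 smooth muscle genes were higher, and 2 TGF-beta genes higher and 1 lower. A minimum of 5 FPKM left 212 of all genes lower, with 1 smooth muscle and 1 TGF-beta gene. The pseudocount and the minimum act on low genes by construction, and the cause of the other changes was not tested. No library could be left out, and depth limits the 3 members under 1 FPKM and the B16/BL6 value of Tagln2.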
